A study of Homo sapiens with 6 samples.

Results

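The genes described here encode chains of the alpha-v and alpha-5 integrins together with other integrin chains. The set was 9 genes taken by name, namely the alpha chains ITGAV, ITGA5, ITGA8, ITGA4 and ITGAE and the beta chains ITGB3, ITGB5, ITGB6 and ITGB8. Every probe set that the platform annotation assigned to 1 symbol only was read, which gave 27 probe sets of 8 genes among the 54613 probe sets tested. ITGB6 was covered only by 4 probe sets annotated to several symbols, and no value is given for it. The arrays compared MDA231-LM2 cells, a lung-metastatic derivative of the human breast cancer line MDA-MB-231, grown in 2 ways with 3 cultures each. Monolayer cells attached overnight and were then kept for 48 hours in renewed DMEM GlutaMAX with 10% fetal bovine serum, penicillin, streptomycin and amphotericin B. Oncospheres, which are free-floating cell clusters, were kept for 4 days on ultra-low adhesive plates in HuMEC medium with insulin at 5 μg/ml, EGF at 20 ng/ml, bFGF at 10 ng/ml and 2% B27, without serum. Attachment, base medium, serum, growth factors, other supplements and time in culture therefore differed together between the groups and cannot be told apart. All 6 cultures came from 1 cell line, and the spread behind each p-value is that of cultures of this line alone. RNA of whole cultures does not separate more RNA per cell from more cells that express a gene.

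An integrin is a pair of 1 alpha and 1 beta chain that spans the cell membrane and ties matrix proteins outside the cell to the actin cytoskeleton inside it. ITGAV pairs with ITGB1, ITGB3, ITGB5, ITGB6 or ITGB8, whereas ITGA5 and ITGA8 pair with ITGB1, and these receptors recognise the tripeptide Arg-Gly-Asp (RGD) in fibronectin, vitronectin, osteopontin and other ligands. The pairs of ITGAV with ITGB6 or ITGB8 also bind an RGD site in some forms of latent TGF-beta and release the active cytokine. ITGA4 and ITGAE have other ligands, since ITGA4 binds VCAM1 and fibronectin at non-RGD sites and ITGAE, with ITGB7, binds E-cadherin on epithelial cells.

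The values are microarray intensities on a linear scale in array units, and changes are given as oncospheres minus monolayer on the log2 scale. The median over all values was 113.5 and the lowest was 48.0, and correlations over all probe sets ran from 0.993 to 0.996 within groups and from 0.966 to 0.973 between groups. Oncosphere 2 stood apart from the other arrays on the second principal component, which held 6.89% of the variance (-25.7 against -5.71 to 13.2). Of 4 markers high in the line VIM (19915 to 21040) and CD44 were not called, while AXL and CAV1 were called lower in oncospheres, at -1.89 and -0.48 (limma, adjusted p = 1.21e-05 and 0.00154), and all 4 stayed far above the median. Of 5 markers listed as low PGR and CDH1 lay under the median on every array and ESR1 just above it (118 to 144), whereas ERBB2 (336 to 439) and EPCAM (392 to 574, called lower at -0.34, limma, adjusted p = 0.0145) lay well above it. The summed intensity of 4 measured leukocyte markers was 554 to 589 in monolayer and 539 to 627 in oncospheres, where CD14 was called higher, at 0.52, and ITGB2 lower, at -0.24 (limma, adjusted p = 0.00661 and 0.0497), and PTPRC lay between 65.6 and 85.3. That of 5 endothelial and platelet markers was 639.6 to 658 and 924 to 1176, where PECAM1 and PF4 were called higher, at 1.58 and 0.52 (limma, adjusted p = 1.65e-04 and 0.0118), and CDH5 (66.6 to 77.7) and VWF (86.2 to 109.7) lay under the median. The part of either marker list in the integrin results was not tested.

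The sequences around the annotated start sites of 3 of these genes are shown first, because ITGB8 and ITGAV gave the clearest increases and ITGA5, the classic fibronectin receptor chain, was not called. They are the RefSeq windows of the build GRCh38.p14, from 250 bases before the start to 50 after it. Such windows were found for 8 of the 9 genes, ITGB6 included and ITGB3 not, and made 11 windows. Both strands were searched for TGANTCA (the AP-1 site), TGACGTCA (the CRE), GGAATG (the TEAD site) and GGGCGG (the GC box), and matches are in capitals. The ITGB8 window is chr7:20330650-20330949 on the plus strand, the ITGAV window is chr2:186589806-186590105 on the plus strand and the ITGA5 window is chr12:54419217-54419516 on the minus strand.
ITGB8: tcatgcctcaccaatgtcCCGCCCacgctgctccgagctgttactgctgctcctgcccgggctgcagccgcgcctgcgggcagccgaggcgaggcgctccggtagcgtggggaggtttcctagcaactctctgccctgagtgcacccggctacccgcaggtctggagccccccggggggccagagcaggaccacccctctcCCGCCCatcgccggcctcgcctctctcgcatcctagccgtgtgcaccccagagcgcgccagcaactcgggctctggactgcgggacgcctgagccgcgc
ITGAV: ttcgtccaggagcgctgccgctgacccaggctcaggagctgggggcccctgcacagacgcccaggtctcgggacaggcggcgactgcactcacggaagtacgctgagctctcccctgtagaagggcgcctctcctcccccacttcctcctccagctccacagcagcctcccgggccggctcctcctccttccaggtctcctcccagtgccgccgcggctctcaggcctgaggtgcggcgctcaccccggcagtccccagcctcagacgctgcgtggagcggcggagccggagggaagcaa
ITGA5: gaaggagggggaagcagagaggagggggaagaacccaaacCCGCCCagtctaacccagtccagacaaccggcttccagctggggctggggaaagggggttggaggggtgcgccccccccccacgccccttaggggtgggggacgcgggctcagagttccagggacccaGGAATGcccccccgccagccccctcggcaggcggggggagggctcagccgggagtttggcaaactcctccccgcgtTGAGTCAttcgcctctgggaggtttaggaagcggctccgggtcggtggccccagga
The ITGA5 window held 1 AP-1 match, TGAGTCA starting 6 bases before the annotated start, and 1 TEAD match starting 82 bases before it, and it was the only one of the 11 windows with a match to either. ITGB8 had 2 GC boxes, starting 232 and 49 bases before the start, while the ITGAV windows matched none of the 4 motifs. Of all 35116 promoters of this length 7.71% held the AP-1 letters, 1.85% the CRE, 14% the TEAD letters and 45% a GC box, and among the 11 windows these were found in 1, 0, 1 and 6. A match is a run of letters and not a measured site.

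Integrin chain expression diverged between the culture forms. ITGB8 rose several-fold in oncospheres, ITGAV rose by less than a doubling and ITGAE fell. ITGB3 rose slightly on some of its probe sets, and ITGA5 was not called in either direction. Each gene was read from its brightest single-symbol probe set, and by limma with Benjamini-Hochberg adjustment over all probe sets (called at an adjusted p below 0.05) 3 of the 8 genes were called higher, 1 lower and 4 not called. Over all 19775 genes 17.3% were called higher and 17.5% lower, and the median log2 change was 0.13 for the 8 genes against -0.020 for all genes. Of the 27 probe sets 9 were called higher, where the share over all probe sets was 14.5%, and 1 lower, where that share was 14.2%. In 11 of the 27 all 3 oncospheres lay above all 3 monolayers and in 1 all lay below, beside 19.9% and 21.7% of all probe sets. Probe sets of 1 gene share its RNA and are not replicates, and 17 of the 27 never exceeded the median of all values on any array. A change of at least 1.5-fold among called genes was seen upwards for ITGB8 and ITGAV, beside 7.23% of all genes, and 3 of the 8 genes had all oncospheres above all monolayers, beside 22.3% of all genes.

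**Figure D1:**
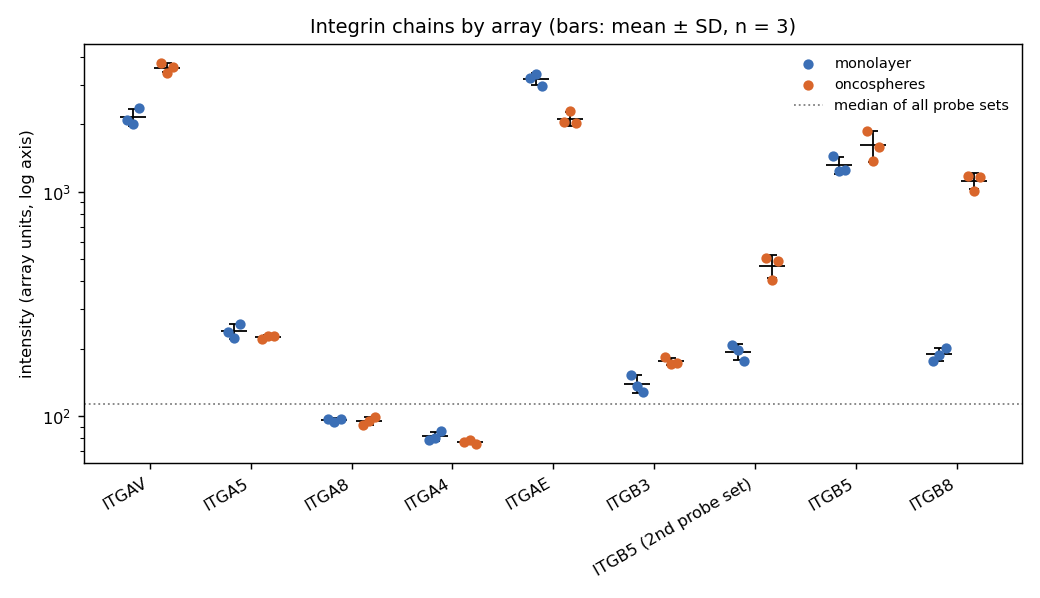
Intensity (array units, log axis) of the brightest probe set of each integrin chain, and of a further ITGB5 probe set, on the 3 monolayer and 3 oncosphere arrays, with bars for the mean ± SD. ITGB8 and ITGAV lie higher in all oncospheres and ITGAE lies lower, with no overlap, while the ITGA5 arrays overlap.

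ITGAV, the alpha-v chain shared by 5 receptors, was measured by 1 probe set, 202351_at. Its intensity was 2091, 1997 and 2351 in the monolayers and 3733, 3398 and 3597 in the oncospheres. All oncospheres lay above all monolayers, and the distance between the groups exceeded the spread within either. The means were 2146 ± 183 and 3576 ± 169 (SD, n = 3), a log2 change of 0.74 with a standard error of 0.076 and a 95% interval from 0.56 to 0.91 (limma, adjusted p = 2.08e-04), or 1.67-fold.

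ITGA5, the alpha-5 chain of the fibronectin receptor, gave 238, 223 and 258 in the monolayers and 221, 228 and 228 in the oncospheres (201389_at). The groups overlapped, with the oncospheres inside or just under the monolayer range. The log2 change was -0.085 with a standard error of 0.068 and an interval from -0.24 to 0.070 (limma, adjusted p = 0.425), so that the interval holds folds from 0.846 to 1.05.

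ITGA8, which with ITGB1 binds nephronectin in the developing kidney, was dim on all 4 of its probe sets, whose values ran from 64.3 to 99.0. Its brightest probe set, 242071_x_at, gave 97.2, 94.0 and 97.7 in the monolayers and 91.4, 95.6 and 99.0 in the oncospheres. The groups overlapped, and the log2 change was -0.015 with an interval from -0.15 to 0.12 (limma, adjusted p = 0.888). On 214265_at the oncospheres lay above the monolayers without overlap, at a log2 change of 0.12 that did not pass the test (limma, adjusted p = 0.231).

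ITGA4, the alpha chain of the VCAM1 receptors of leukocytes, was dim as well, with all values of its 4 probe sets between 57.2 and 85.8. Its brightest probe set, 213416_at, read 78.7, 80.1 and 85.8 in the monolayers and 76.7, 78.9 and 75.5 in the oncospheres. These values overlapped and were under the median of all probe sets on every array, with a log2 change of -0.081 and an interval from -0.22 to 0.054 (limma, adjusted p = 0.38). At such intensities signal and background are hard to separate, and a low level is not shown to be no expression.

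ITGAE, which with ITGB7 forms the E-cadherin receptor known from intraepithelial T cells, was the only one of the 8 genes called lower. Its probe set 205055_at gave 3219.8, 3348 and 2959 in the monolayers and 2037, 2299 and 2019.6 in the oncospheres. Every oncosphere lay below every monolayer. The mean went from 3176 ± 198 to 2119 ± 157 (SD, n = 3), and the value fell by 0.58 on the log2 scale with a standard error of 0.076 (limma, adjusted p = 6.82e-04) to 0.667 of the monolayer level, just short of the 1.5-fold limit used for counts. Among the leukocyte markers ITGB2, at 230, 239 and 250.3 against 200.4, 187 and 223, was called lower as well, CD14 was called higher and PTPRC was under the median on every array, and their part in the ITGAE result was not tested.

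ITGB8, the beta chain that with ITGAV binds latent TGF-beta, changed most among the chains. Probe set 226189_at gave 176, 189 and 202 in the monolayers and 1176, 1014 and 1169 in the oncospheres. The lowest oncosphere was far above the highest monolayer. The means were 189 ± 12.9 and 1120 ± 91.8 (SD, n = 3), and the log2 change was 2.57 with a standard error of 0.081 and an interval from 2.38 to 2.75 (limma, adjusted p = 1.66e-06). This was 5.92-fold with an interval from 5.20 to 6.74, and it placed ITGB8 28th by increase among the 19775 genes.

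The other 4 probe sets of ITGB8 were dim and gave far smaller changes. On 211488_s_at the arrays read 79.6, 77.0 and 81.6 against 98.8, 99.1 and 106, at a log2 change of 0.35 (limma, adjusted p = 0.00242). The 205816_at values were 73.8, 64.7 and 76.2 against 93.0, 78.9 and 92.8, at a log2 change of 0.30 (limma, adjusted p = 0.0391). On 242982_x_at they were 76.4, 80.4 and 94.3 against 103, 106 and 107, at 0.34 (limma, adjusted p = 0.0156). On these 3 probe sets the oncospheres all lay above the monolayers, in the same direction as on the bright one. The calls of 205816_at and 242982_x_at were lost without single arrays, at adjusted p = 0.0727, 0.119, 0.126 and 0.121 for 205816_at without monolayer 1, monolayer 2, oncosphere 1 and oncosphere 3, and at 0.0541, 0.0557 and 0.0504 for 242982_x_at without monolayer 1, monolayer 2 and oncosphere 3 (limma). Both were also lost after background subtraction, at adjusted p = 0.237 and 0.0571, where 211488_s_at was called at a log2 change of 1.19 (limma, adjusted p = 0.00183). The last, 1563010_at, was not called, at a log2 change of 0.011 (limma, adjusted p = 0.926). Averaged over all its probe sets, ITGB8 rose by 0.71 on the log2 scale, or 1.64-fold (limma, adjusted p = 6.97e-05), so that no probe set of ITGB8 was lower in oncospheres but the size of its change differed between them.

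The genes whose profiles over the 6 arrays lay closest to that of ITGB8 were found by the Euclidean distance between log2 values after each gene's mean was subtracted, as a description. They were GPRC5C at a distance of 0.10, the complement component C3 at 0.21, fibronectin (FN1) at 0.24, the carboxypeptidase CPVL at 0.25 and HLA-DRB4 at 0.26. With 6 arrays in 2 groups the distance mostly reads the size of the group difference, and all 5 genes rose in oncospheres (limma, log2 changes from 2.48 to 2.60).

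**Figure D2:**
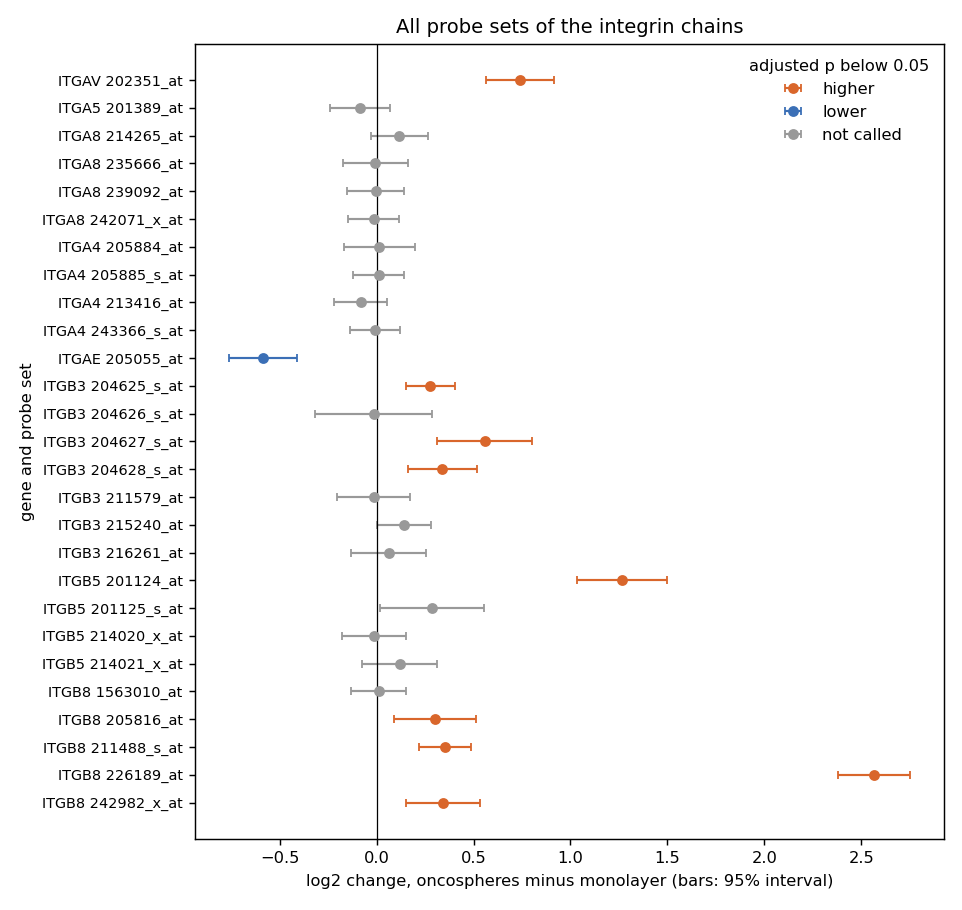
Log2 change between oncospheres and monolayer (horizontal axis) with 95% intervals from limma for each of the 27 integrin probe sets (vertical axis), coloured by whether the adjusted p was below 0.05. The ITGB8 probe set 226189_at, at 2.57, and the ITGB5 probe set 201124_at, at 1.27, lie apart from the other probe sets of their genes.

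ITGB5, a beta chain that with ITGAV binds vitronectin, gave different answers on its probe sets. The brightest, 201125_s_at, read 1451, 1238 and 1252 in the monolayers and 1869, 1374 and 1584 in the oncospheres. Oncosphere 2 lay below monolayer 1, and the groups overlapped. The log2 change was 0.29 with a standard error of 0.12 and an interval from 0.017 to 0.55, with an adjusted p of 0.112 (limma), and without oncosphere 2 it was 0.39 and called (limma, adjusted p = 0.0285).

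The ITGB5 probe set 201124_at read 208, 197 and 177 in the monolayers and 506, 404 and 493 in the oncospheres. Here all oncospheres lay far above the monolayers, the means being 194 ± 15.7 and 468 ± 55.5 (SD, n = 3). The log2 change was 1.27 with a standard error of 0.10, or 2.41-fold with an interval from 2.05 to 2.83 (limma, adjusted p = 5.86e-05). Set against 201125_s_at on the same array, the log2 ratio was -2.81, -2.65 and -2.83 in the monolayers and -1.89, -1.77 and -1.68 in the oncospheres, without overlap. The mean ratio differed by 0.98 between the groups, which is given as a description because it was looked at after the changes of both probe sets were known. Both other ITGB5 probe sets were not called, at -0.015 for 214020_x_at and 0.12 for 214021_x_at. With the mean of its probe sets ITGB5 was called higher, at 0.41 (limma, adjusted p = 0.00226).

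ITGB3, the beta chain of the classic vitronectin receptor and of the platelet fibrinogen receptor, was measured by 7 probe sets of low intensity. Its brightest, 204628_s_at, gave 153, 137 and 128 in the monolayers and 183, 172 and 172 in the oncospheres. All oncospheres lay above the monolayers, with means of 139 ± 12.9 and 176 ± 6.37 (SD, n = 3). The log2 change was 0.34 with a standard error of 0.077 and an interval from 0.16 to 0.52, or 1.26-fold (limma, adjusted p = 0.0114). The call was lost after a background value was subtracted from each array (0.59, adjusted p = 0.0502) and when _s_at and _x_at probe sets were left out, which leaves 216261_at at 0.063 (adjusted p = 0.675, limma).

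Among the remaining ITGB3 probe sets, 204627_s_at read 92.7, 105 and 113 in the monolayers and 157, 132 and 169 in the oncospheres, a log2 change of 0.56 (limma, adjusted p = 0.00496). The values of 204625_s_at were 88.9, 91.7 and 93.9 against 113, 108 and 112, a change of 0.28 (limma, adjusted p = 0.00612). Both separated the groups in the direction of the brightest one, and after background subtraction the change of 204627_s_at was 1.19 (limma, adjusted p = 0.0384). The others did not pass the test, with 204626_s_at at -0.015, 211579_at at -0.014 and 215240_at at 0.14, where 215240_at did not overlap between the groups (limma, adjusted p = 0.123). In the monolayers 204626_s_at was about as bright as 204628_s_at, at means of 138.6 and 139.4. Its oncosphere mean was 136.7, so it showed no rise (limma, adjusted p = 0.954).

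The partner chains outside the set moved little. ITGB1, the beta chain that pairs with ITGAV, ITGA5, ITGA8 and ITGA4, read 10454, 10087 and 10419.6 in the monolayers and 12413, 11640.4 and 12274 in the oncospheres. All oncospheres lay above the monolayers, at a log2 change of 0.23 with a standard error of 0.056 (limma, adjusted p = 0.0156). The call was lost without monolayer 2, oncosphere 1 or oncosphere 3 (limma, adjusted p = 0.0504, 0.0604 and 0.0535). It was also lost with the mean of the ITGB1 probe sets (0.11, limma, adjusted p = 0.0868). That mean takes in dim ITGB1 probe sets, under the median of all values on every array and not called, at -0.0090 to 0.010. The other bright ITGB1 probe sets were called higher without overlap, at 0.29 and 0.25 (limma, adjusted p = 0.00355 and 0.0114). Whether these calls held without single arrays was not tested. ITGB7, the partner of ITGAE and ITGA4, gave 137, 129.6 and 142 against 119, 139.7 and 121, with overlap, at -0.11 with an interval from -0.28 to 0.072 (limma, adjusted p = 0.381). ITGA2B, the platelet partner of ITGB3, was dim and not called, at -0.027 (limma, adjusted p = 0.835).

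The ligands of these receptors moved in both directions. Of 22 measured matrix proteins listed as ligands 10 were called higher and 3 lower, with a median log2 change of 0.059, beside 17.3% and 17.5% of all genes. FN1, the fibronectin bound by ITGA5 and ITGAV receptors, gave 2454, 2617 and 2607 in the monolayers and 14205, 14399.6 and 14108 in the oncospheres, a change of 2.48 (limma, adjusted p = 4.09e-07), or 5.57-fold, and 3.27-fold without _s_at and _x_at probe sets. CCN1, a matricellular protein, gave 10263, 9534 and 9577 against 1906, 2191 and 1844, a change of -2.31 (limma, adjusted p = 1.76e-06). The ligand genes thus held large changes of opposite sign, each without overlap between groups. CCN2, the relative of CCN1, also changed by -2.31 (limma, adjusted p = 3.34e-06).

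Osteopontin (SPP1), a ligand of ITGAV receptors, read 87.6, 86.2 and 90.2 in the monolayers and 182, 129.5 and 149 in the oncospheres, a log2 change of 0.79 (limma, adjusted p = 0.00114). Tenascin C (TNC), a matrix glycoprotein with an RGD site, read 976, 852 and 942 against 2091, 1565 and 1555, a change of 0.90 (limma, adjusted p = 7.51e-04). Both rose, with every oncosphere above every monolayer, though SPP1 started under the median of all values, and after background subtraction its fold was 3.70 in place of 1.73. LAMA5, a laminin chain, spread widely at 642, 361 and 1089.8 against 5008, 1960 and 2227, a change of 2.15 with a standard error of 0.44 (limma, adjusted p = 0.00736), and it was no longer called after background subtraction (2.28, adjusted p = 0.0699). Vitronectin (VTN) was covered only by 2 probe sets annotated to several symbols and is given no value.

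For ITGA4 and ITGAE, 1 of 4 listed ligands was called higher and 0 lower by limma (1 lower at an unadjusted p below 0.05), beside 17.3% and 17.5% of all genes, with a median log2 change of -0.057. VCAM1, the counter-receptor of ITGA4, gave 306, 264 and 323 in the monolayers and 2087, 1743 and 1802 in the oncospheres, a change of 2.66 (limma, adjusted p = 2.28e-06), while ITGA4 itself stayed dim. E-cadherin (CDH1), the ligand of ITGAE, gave 76.9, 81.5 and 82.2 against 66.3, 74.5 and 71.1, a change of -0.18 that missed the threshold (limma, adjusted p = 0.0713). CDH1 lay under the median of all values on every array, and it was called without oncosphere 2 (limma, adjusted p = 0.0461).

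The list of the latent TGF-beta complex held 6 of 9 genes called higher and 1 lower, beside 17.3% and 17.5% of all genes, with a median log2 change of 0.55. Which of their products ITGAV with ITGB8 binds was not tested. LTBP1, which tethers the latent complex to the matrix, gave 643, 669.8 and 638 in the monolayers and 2696, 2214 and 2388 in the oncospheres, a change of 1.90 (limma, adjusted p = 3.32e-06). NRROS, a membrane anchor of latent TGF-beta known from myeloid cells, gave 201, 203 and 212 against 363, 368 and 359, a change of 0.83 (limma, adjusted p = 2.32e-05). These anchors rose without overlap between the groups. LTBP3 gave 151, 147 and 163 against 267, 321 and 273, a change of 0.90 (limma, adjusted p = 1.29e-04), but without _s_at and _x_at probe sets it was -0.051 and not called (limma, adjusted p = 0.664).

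The 3 cytokine genes themselves went different ways. TGFB2 gave 2154, 1386 and 1299 in the monolayers and 503, 590.1 and 472 in the oncospheres, a log2 change of -1.60 with a standard error of 0.18 (limma, adjusted p = 3.54e-04), and monolayer 1 lay above the other monolayers. TGFB1 gave 162, 159.8 and 164 against 211, 188 and 211, a change of 0.33 (limma, adjusted p = 0.0055). TGFB3 gave 119, 133.2 and 132.6 against 189.7, 215 and 172, a change of 0.58 (limma, adjusted p = 0.00186). TGFB2 fell while the others rose, each without overlap between groups. LTBP2 was also called higher, at 0.55 (limma, adjusted p = 0.00128), and LTBP4, at 0.17, and LRRC32, at 0.12, were not called (limma, adjusted p = 0.0721 and 0.534).

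**Figure D3:**
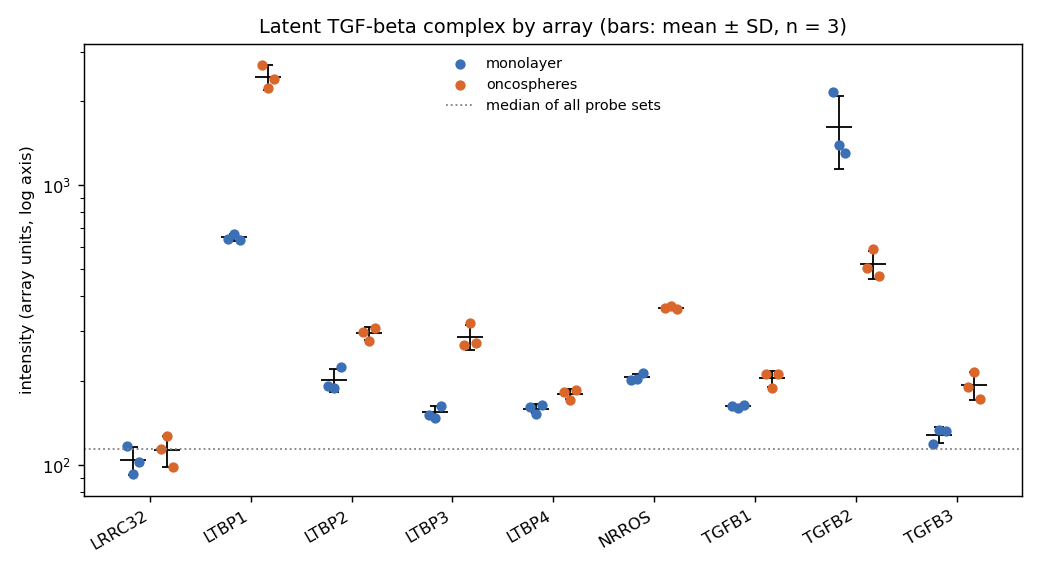
Intensity (array units, log axis) of the 9 genes of the latent TGF-beta complex on the 3 monolayer and 3 oncosphere arrays, with bars for the mean ± SD. LTBP1, from 638 to 669.8 in monolayers and 2214 to 2696 in oncospheres, rose most and TGFB2 fell.

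Genes that act on the inner side of integrins were read from 3 lists. Of 11 measured activators and inactivators of integrins 0 were called higher and 3 lower by limma (1 higher and 6 lower at an unadjusted p below 0.05), beside 17.3% and 17.5% of all genes, with a median log2 change of -0.15, and in 7 of the 11 all oncospheres lay below all monolayers, beside 24.6% of all genes. ITGB1BP1, which binds the tail of ITGB1 and keeps it inactive, changed by -0.38 (limma, adjusted p = 0.00203), and without _s_at and _x_at probe sets by 0.081, in the other direction. FERMT2 (kindlin-2), a co-activator, changed by -0.23 (limma, adjusted p = 0.0373), and the small GTPase RAP1A by -0.18 (limma, adjusted p = 0.0389). The FERMT2 call held in 1 of 6 fits that left out an array (adjusted p from 0.0116 to 0.124) and that of RAP1A in 0 of 6 (0.0651 to 0.117). After cyclic loess normalization FERMT2 and RAP1A were not called, at -0.15 and -0.096 (limma, adjusted p = 0.143 and 0.245). ITGB1BP1 was still called there, at -0.30 (limma, adjusted p = 0.00605). TLN1, the talin that switches integrins on, was not called at -0.041. FLNA and KRIT1 were not analysed here.

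Among 21 measured adaptors and kinases of adhesion complexes 4 were called higher and 3 lower, close to the 17.3% and 17.5% of all genes, with a median log2 change of -0.039. TNS3, a tensin that binds beta chain tails, gave 1229, 1214 and 1272 in the monolayers and 2446, 2216 and 2344 in the oncospheres, a change of 0.91 (limma, adjusted p = 2.40e-05). The scaffold NEDD9 changed by 0.54 (limma, adjusted p = 0.00816), a call lost with the mean of its probe sets (0.097, adjusted p = 0.226). The actin cross-linker ACTN1 changed by -0.48 and the adaptor ZYX by -0.30 (limma, adjusted p = 0.0045 and 0.00574). The focal adhesion kinase PTK2, at 0.034, ILK, at -0.046, and vinculin (VCL), at 0.038, were not called. CRK was not analysed here.

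Of 12 trafficking genes, which carry integrins in and out of endosomes, 3 were called higher and 2 lower, beside 17.3% and 17.5% of all genes, with a median log2 change of 0.0083. The endocytic adaptor NUMB changed by 0.73 (limma, adjusted p = 8.76e-04), and by 1.39 after background subtraction. It was read from 1 probe set, at 98.7, 116 and 117 in the monolayers, near the median of all values. Its 3 probe sets annotated to several symbols were not read. The GTPase ARF6 changed by 0.39 (limma, adjusted p = 0.00163) and the clathrin adaptor DAB2 by 0.31 (limma, adjusted p = 0.00622). RAB11FIP1, an effector of recycling endosomes, changed by -0.35 (limma, adjusted p = 0.00427). Over the 82 measured genes of all these lists 25 were called higher and 12 lower, beside 17.3% and 17.5% of all genes, with a median log2 change of 0.0077 beside -0.020 for all genes.

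**Figure D4:**
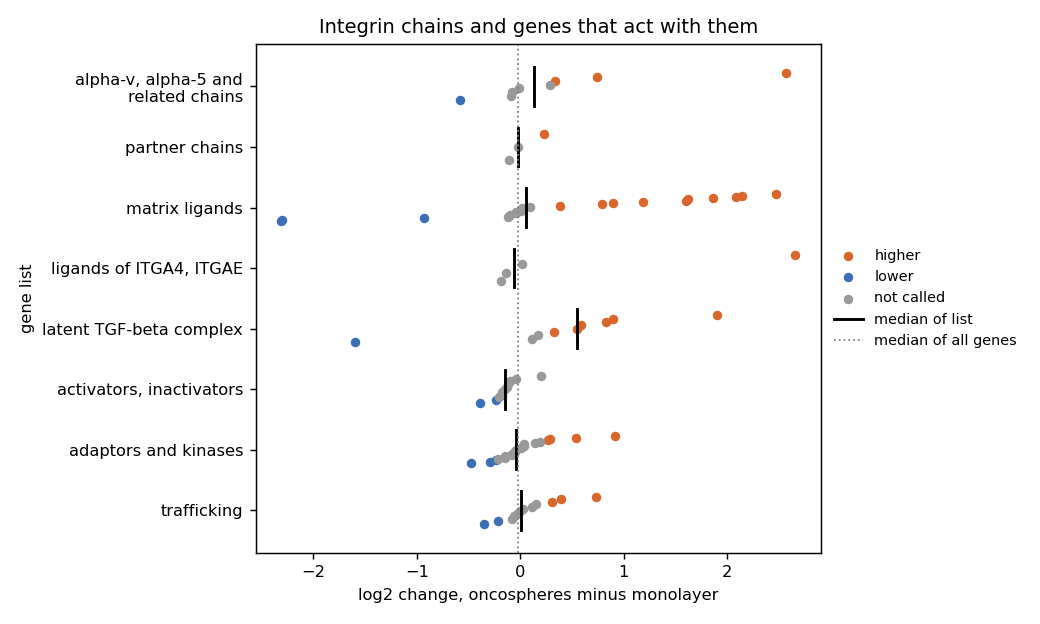
Log2 change between oncospheres and monolayer (horizontal axis) of each gene in the integrin chains and the lists of genes that act with them (vertical axis). The latent TGF-beta genes have a median of 0.55, the activators and inactivators of -0.15, and the ligand list spreads from -2.31 to 2.48.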

How the data were processed

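RNA of 6 MDA231-LM2 cultures, 3 as monolayer and 3 as oncospheres by their labels, was labelled from 100 ng and hybridised to Affymetrix Human Genome U133 Plus 2.0 arrays. The deposited intensity values were normalized by the authors with RMA and stand on a linear scale, and the submitters' processing notes name affy (version not given in the sources used here). RMA fits probes over all arrays and pulls low values towards a floor, so that changes of dim probe sets can be understated. The lowest value was 48.0, and whether an offset was added after RMA is not stated in the sources used here. Here values were log2-transformed, 62 control probe sets were left out, and 54613 were fitted with limma 3.58.1 in R 4.3.3 (lmFit, eBayes, two-sided, Benjamini-Hochberg adjustment over all of them). Of these 41091 had 1 gene symbol, 1801 several and 11721 none, and only the first were named. A gene was read from its probe set with the highest mean. The array number, 3 per group, limits the precision. Named were all integrin members and their partner chains, and from each other list up to 4 called genes with the largest change, the less frequent direction included, with SPP1, TNC, FN1, VTN, VCAM1 and CDH1. The members and lists were chosen with earlier results of these data known. Alternatives changed the normalization, background, filter, variance prior, array weights, threshold, replicate block, value per gene and probe set class, and left out each array. Promoter windows came from RefSeq and were searched by exact letters.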

Additional observations from a re-analysis of the deposited data

How the results depend on the processing

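The directions of ITGAV, ITGB8 and ITGAE and their calls held in each alternative tried, at log2 changes of 0.69 to 0.82 for ITGAV and -0.64 to -0.50 for ITGAE, while the size for ITGB8 ran from 0.71 (mean of its probe sets) to 3.08 (background subtracted). Member genes called higher numbered 2 to 4 over the alternatives and member genes called lower 1. Genes of the other lists called higher numbered 20 to 27 and those called lower 8 to 15, with 8 lower after cyclic loess normalization. With dim probe sets left out, 5 member probe sets were called higher in place of 9, since the filter removed the other called ones, of ITGB3 and ITGB8. Without single arrays 7 to 10 were called higher. ITGA8 turned to 0.023 with the mean of its probe sets and 0.12 without _s_at and _x_at probe sets, and ran from -0.043 to 0.015 without single arrays. In the same way ITGA2B ran from -0.083 to 0.0020. Without _s_at and _x_at probe sets LTBP3 was -0.051 and ITGB1BP1 0.081, each read from another, dimmer probe set of its gene. The reason for the differences between probe sets was not tested. Replicate numbers were shared by the labels, and deviations of same-numbered arrays correlated at 0.068, 0.082 and 0.089, each array best with its own number, which is a hint from the data only. With the replicate number as a block 4 member genes and 10 member probe sets were called higher, ITGB5 being gained (limma, adjusted p = 0.0246), and FERMT2 and RAP1A were lost (0.0529 and 0.0716). Signal over background limits ITGA4, ITGA8, ITGB3 and the dim ITGB8 probe sets.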

Other observations

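Transcripts annotated beside integrin chains were looked at after their values were seen, and are given as values only. ITGB8-AS1, an antisense RNA of the ITGB8 locus, read 107, 108 and 114 in the monolayers and 141, 148 and 141 in the oncospheres, a log2 change of 0.39 with a standard error of 0.057 (limma, adjusted p = 0.00127). It lay above the monolayers in 3 of 3 oncospheres, in the direction of ITGB8. ITGB1-DT, the divergent transcript of ITGB1, read 213, 185 and 211 against 162, 153 and 172, a change of -0.32 (limma, adjusted p = 0.0146), in the direction opposite to ITGB1.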
